A study of Mus musculus with 12 samples.

Results

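Every splice junction read in mouse neocortex was compared between postnatal day 10 (P10) and postnatal day 49 (P49), to ask which single junctions change with age and where the choice between splice sites within a gene changes apart from the level of the gene. The deposited table lists 638144 rows, which hold 608954 distinct intron coordinates. All of these coordinates were taken, each once, and 427202 of them had a read in at least 1 of the P10 and P49 libraries. The comparison uses 2 P10 and 2 P49 libraries of the 12 in the series, from wild type NMRI mice that received neither DRB nor bicuculline. NMRI is an outbred stock, so animals can differ in genotype. The labels do not say whether the libraries of an age came from separate animals, and the P10 columns share a single tissue code. The p-values thus reflect only how far libraries scatter within the fitted groups, and that scatter could be technical. A further 4 libraries entered the model for its estimate of the spread. They came from neocortical cells taken from embryos (E16.5) and cultured for 14 days, 2 of them untreated (called control below) and 2 given 50 uM DRB, a blocker of transcription elongation, for 2 hours.

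A junction is taken here as the trace of 1 removed intron. A read that crosses it joins a donor site, at the intron's 5′ end, to an acceptor site at its 3′ end. Whether unannotated gaps as short as 28 bases (Gpd1l) or 42 bases (Coro2b) are introns was not tested. Where 2 or more junctions share a donor or an acceptor, the cell has a choice, and a cassette exon is an exon that is either kept through a pair of junctions or skipped through a single one. Neurons make wide use of such choices in channels, adhesion proteins, scaffolds and the cytoskeleton, and exon programs of the brain are known to shift between early postnatal and adult life, partly through RNA-binding proteins of the PTB, RBFOX, MBNL, NOVA and SRRM families. Very short exons, called microexons, are kept mostly in neurons, and poison exons bring in an early stop codon and so mark their transcript for decay.

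Sequences of some exons described below are printed as they stand in the spliced transcript of the GENCODE mouse annotation, release 21 (build mm10, GRCm38). The exons were picked with earlier results of these data known. Those in the first set are cassette exons or an exon extension, shown in capitals between 15 lower-case bases on each side. The lower-case bases come from the neighbouring exons, except those before the Mapre3 extension, which belong to the same exon. Longer exons with changed inclusion, such as the 358-base exon of Srsf9, are not printed.

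C2cd5, 33 bases, chr6:143066186-143066218, minus strand: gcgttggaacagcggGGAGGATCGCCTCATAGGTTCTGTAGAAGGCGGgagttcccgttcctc
Ttc7b, 51 bases, chr12:100340497-100340547, minus strand: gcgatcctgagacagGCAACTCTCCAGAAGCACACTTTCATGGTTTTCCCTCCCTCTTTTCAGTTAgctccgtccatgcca
Arhgap44, 18 bases, chr11:65012907-65012924, minus strand: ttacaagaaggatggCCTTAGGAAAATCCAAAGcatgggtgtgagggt
Myh10, 63 bases, chr11:68775365-68775427, plus strand: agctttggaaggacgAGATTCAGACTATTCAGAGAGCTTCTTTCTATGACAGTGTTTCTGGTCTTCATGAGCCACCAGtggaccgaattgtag
Kif3a, 9 bases, chr11:53590717-53590725, plus strand: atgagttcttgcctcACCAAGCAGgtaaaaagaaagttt
Gsk3b, 39 bases, chr16:38217113-38217151, plus strand: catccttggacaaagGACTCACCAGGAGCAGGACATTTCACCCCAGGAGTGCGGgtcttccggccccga
Scn1a cassette exon, 64 bases, chr2:66293832-66293895, minus strand: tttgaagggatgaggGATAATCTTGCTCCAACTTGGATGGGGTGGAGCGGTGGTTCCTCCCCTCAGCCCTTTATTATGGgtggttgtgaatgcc
Mapre3 exon extension, 45 bases, chr5:30863361-30863405, plus strand: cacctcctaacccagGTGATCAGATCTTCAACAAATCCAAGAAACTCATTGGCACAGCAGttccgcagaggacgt

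The 64 bases of the Scn1a exon are not a multiple of 3, and the exon stands only in a transcript annotated as a target of nonsense-mediated decay. The other lengths in this set are multiples of 3.

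The second set shows a pair of exons of equal length that lie side by side in the channel gene Cacna1a and join the same acceptor downstream. Capitals mark the positions at which they differ, which are 37 of 97.

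Cacna1a first exon, chr8:84614695-84614791, plus strand: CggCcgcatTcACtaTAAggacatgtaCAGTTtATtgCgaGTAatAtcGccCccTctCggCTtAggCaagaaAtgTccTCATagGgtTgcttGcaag
Cacna1a second exon, chr8:84615574-84615670, plus strand: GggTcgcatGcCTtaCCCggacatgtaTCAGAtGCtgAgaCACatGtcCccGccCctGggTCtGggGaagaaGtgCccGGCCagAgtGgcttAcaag

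The 4 neocortex libraries held 61449312 to 73895866 junction reads, and 99.2% to 99.3% of these fell on introns of the annotation. Most unannotated coordinates were thin: of 238602 with a read at either age, 72.8% had a mean below 1 read per library. Markers of cortical neurons were present (Slc17a7, the vesicular glutamate transporter, at 1482 ± 37.7 CPM at P10 and 1870 ± 65.7 at P49, mean ± SD, n = 2 each, where CPM is the count scaled to the library size after TMM). The summed level of 8 tested immature-neuron markers went from 3998 and 4389 CPM at P10 to 834.3 and 880.4 CPM at P49, and all 8 fell. All 10 oligodendrocyte markers rose, with a summed level of 1119 and 965.5 CPM at P10 and 2871 and 2929 CPM at P49, and all 4 tested markers of their precursors fell. Among 9 tested markers of other regions or blood, 3 rose and 4 fell. The risen ones included the striatal genes Drd2 (15.9 ± 6.45 to 41.2 ± 4.35 CPM) and Adora2a (12.7 ± 2.54 to 22.3 ± 2.66 CPM). Of 8 cortical neuron markers 4 rose and 2 fell, and of 6 tested astrocyte markers 2 rose and 3 fell. Of 6 tested endothelial and mural markers 1 rose and 3 fell, and of 8 microglia markers 0 rose and 1 fell. Over all tested genes, 27.7% rose and 28.4% fell. The part of these shifts in the splice changes below was not tested, and in bulk tissue fewer cells of a type cannot be told apart from less RNA per cell.

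Libraries of the same age also differed from each other in an all-or-none way at some junctions. Between the P10 libraries, 49 junctions had at least 50 reads in 1 library and none in the other, of 116845 with at least 50 reads in either. Between the P49 libraries this held for 43 of 114386 junctions. Between the control cultures it held for 0 of 116144, and between the DRB cultures for 0 of 111006. Across the ages, 3 junctions had at least 50 reads in both P10 libraries and none at P49, and 7 had at least 50 in both P49 libraries and none at P10. Age and animal cannot be told apart in this design for junctions that are present in 1 group of libraries and absent from the other.

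Called single junctions mostly moved with the sum of their gene. The quasi-likelihood test of edgeR was run on the 163813 junctions left by the filter on low counts, and at a Benjamini-Hochberg adjusted p of 0.05 the reads of 30293 were higher (18.5%) and those of 30785 lower (18.8%) at P49, 37.3% in all. A change of at least 2-fold was seen in 9320 of the higher and 10037 of the lower ones. Sums of junction reads per gene gave 8974 calls among 15997 genes (56.1%). Of the 61058 called junctions that lie in tested genes, 57535 (94.2%) moved with a gene sum called in the same direction. A further 2874 (4.7%), in 1595 genes, lay in genes whose sum was not called. Another 649 (1.06%), in 414 genes, moved against their called gene sum, 325 of them upward in a fallen gene and 324 downward in a risen one. Each gene sum includes the reads of the junction set against it, so part of the agreement is built in.

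**Figure D1:**
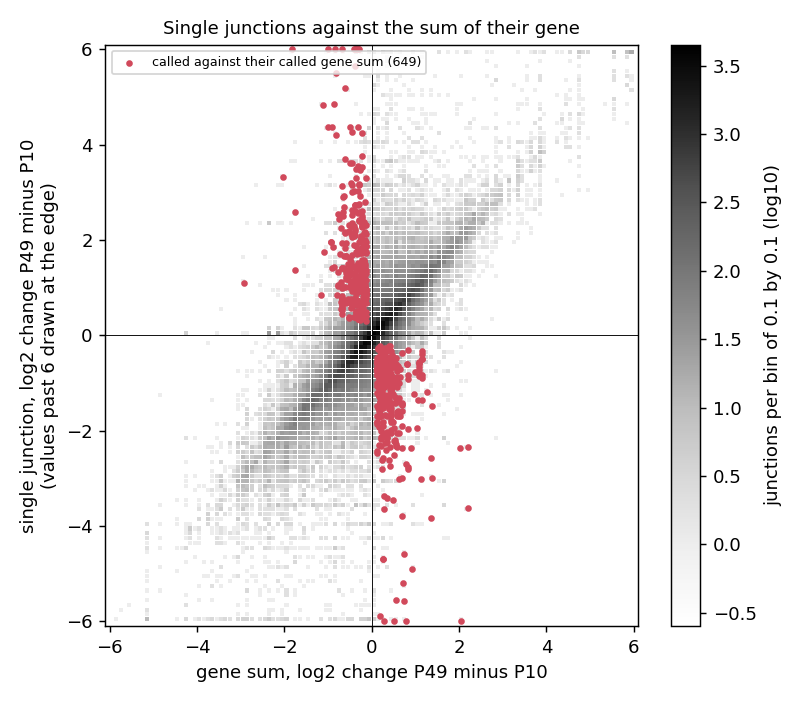
Log2 change (P49 minus P10) of each tested junction (vertical axis) against that of the sum of its gene (horizontal axis), as grey bins shaded by the log10 number of junctions. Most junctions lie along the diagonal, and the 649 red points are junctions called in the direction opposite to their called gene sum. Each sum includes the junction itself, which draws points toward the diagonal.

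Where the average log2 CPM of the 8 fitted libraries reached 1 or more, the largest changes belonged to junctions that are nearly absent at 1 age. In Itfg1, an integrin-alpha FG-GAP repeat protein, the annotated junction chr8:85725597-85726165 had 2919 and 1680 reads at P10 and 1 and 2 at P49. That is a ratio of 1380 with a 95% counting interval of 473 to 6700, while the gene sum moved by only -0.15 on the log2 scale (adjusted p = 0.01). The cultures stood between, with 250 and 313 reads in the controls. In Eif3m, a subunit of a translation initiation factor, an annotated junction (chr2:104999842-105000241) went from 906 and 528 reads to 4 and 3, a log2 change of -7.49 ± 0.373 (SE). The reverse pattern stood in Tubg2, a gamma-tubulin, whose junction chr11:101160947-101161026 went from 8 and 9 reads to 430 and 817 (log2 change 6.35 ± 0.358). In Coro2b, a coronin that binds actin, an unannotated 42-base junction (chr9:62421234-62421275) had no read at P10 and 632 and 484 at P49, which is at least 413-fold higher when 3 counts over the P10 group are taken as the floor. It had no read in any of the 4 culture libraries either.

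Other junctions in the same ranking rested on 1 library. A 29-base unannotated junction in 4833439L19Rik (chr13:54552089-54552117) had 846 reads in the second P10 library and none in the first or at P49. A 28-base one in Gpd1l (chr9:114901830-114901857) had 452 reads in the first P10 library only, and an annotated junction of Noc2l (chr4:156239481-156240093) had 284 reads in the second P10 library only. Without that 1 library the log2 change of each of these 3 was 0.00. All 3 had at least 213 reads in every culture library, with 361 and 397 control reads for the Gpd1l junction. Of the 61078 called junctions 41 had reads in only 1 of the 4 tissue libraries, against 331 with reads in both libraries of 1 age and none at the other. Junctions of Ccn5, Fas and Rpl21 were also in the 5 largest rises at that level, but at P49 they had only 3 and 3, 31 and 33, and 3 and 2 reads. They reached the minimum mean level of the ranking through the cultures, where each had at least 444 reads per control library. The Ccn5 call was lost without either P10 library (adjusted p = 0.059 and 0.073), and the Rpl21 call without either P10 library (0.09 and 0.11) or the first P49 library (0.086), and with no filter on low counts (0.063). Rpl21 is a ribosomal protein gene with many near-identical copies, so its value is uncertain.

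Junctions that moved against their gene included cases with reads in both libraries. Lmo3, a LIM-domain transcription cofactor, fell as a gene by 0.32 on the log2 scale, while its unannotated 80-base junction chr6:138416629-138416708 went from no read at P10 to 62 and 92 reads at P49, at least 56.9-fold higher. Tmsb15b2, a thymosin beta, fell by 1.83, while a junction of it rose from no read to 28 and 23. In Cyp51, an enzyme of cholesterol synthesis, the gene fell by 0.84 and an unannotated junction rose from no read to 23 and 21 reads. In the other direction Evc2, a protein of the primary cilium, rose as a gene by 2.04 while 1 unannotated junction went from 23 and 21 reads to none, at least 13.2-fold lower. Stx3, a syntaxin, rose by 0.79 while 1 junction went from 22 and 27 reads to none, and in Cryzl1 the junction went from 28 and 24 reads to none. The largest rise of this kind, in Carmil3, came from 273 reads in the second P49 library alone, and the falls in Bbs7 and Prpf6 from 177 and 16 reads in the first P10 library alone. Without those libraries the log2 change of these 3 was 0.00, and the Prpf6 junction also missed the threshold without either P49 library (adjusted p = 0.07 and 0.056) and by DESeq2 (0.095). In all, 7 of the 649 had reads in only 1 library.

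Usage within a gene was then tested as the log2 change of a junction relative to the other junctions of its gene, which removes a change of the whole gene. Of 162559 junctions 2638 were called (1.62%), 1454 with higher (0.894%) and 1184 with lower usage (0.728%), and 1146 of 13670 genes (8.38%) had a called junction by the Simes test per gene. Without the first P49 library the number of junctions called was 1745. The gene sum was not called in 300 of these genes (26.2%, against 38.9% of all genes tested for usage). For position along the gene, 5995 genes with at least 10 tested annotated introns were split into 3 equal parts by intron order. The median relative log2 change was 0.026 in the first part, 0.008 in the middle and -0.024 in the last. Called junctions were most frequent in the first part, with 377 higher and 328 lower of 37430. The middle part had 212 higher and 194 lower of 37739, and the last 274 and 286 of 37430.

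The usage ranking repeated Coro2b and Tubg2 and added junctions with reads in all 4 libraries. Rfng, a glycosyltransferase that modifies Notch receptors, had an unannotated 67-base junction that went from 41 and 40 reads to 508 and 325, a relative log2 change of 3.88 ± 0.189, although the gene sum fell by 0.36. Palm encodes paralemmin, a membrane-bound protein of neuronal processes. The junction that leads into its 132-base exon (chr10:79816792-79816923) went from 111 and 115 reads to 487 and 422, and the gene sum fell by 0.62. Cacna1a, the pore-forming subunit of P/Q-type calcium channels, is described below with its splice site. The falls with reads in both P10 libraries were Itfg1 and Eif3m, and the other 3 were the junctions of 4833439L19Rik, Gpd1l and Noc2l that rest on 1 library. The usage call of the Gpd1l junction was also lost without either P49 library (adjusted p = 0.15 and 0.18). By limma voom the usage of the 4833439L19Rik, Gpd1l and Noc2l junctions did not pass (0.56, 0.68 and 0.6).

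Splice site choice was measured as the share of reads each junction takes at a shared donor or acceptor, which does not depend on coverage elsewhere in the gene. Of 14962 sites with 2 or more tested junctions (7571 donors and 7391 acceptors), 806 were called (5.39%), and 383 of them (2.56%) also moved by at least 10 percentage points in the share of some junction. The 383 sites lay in 301 of 7038 genes (4.28%). Their largest change per site had a median of 19.3 points, and 20 sites moved by at least 50 points. Without the second P10 library 247 such sites were called, and without the first P49 library 240. Another 1540 sites moved by at least 10 points in the mean but were not called. The share of sites called differed by kind: 191 of 3386 sites of a cassette exon (5.64%), 133 of 3227 whose alternatives lay over 300 bases apart (4.12%), 52 of 5225 at 13 to 300 bases (1%) and 7 of 3124 at up to 12 bases (0.22%). An unannotated junction took part in 192 of the 383. The sum of the gene was also called in 222 of the 301 genes and not in the other 79.

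**Figure D2:**
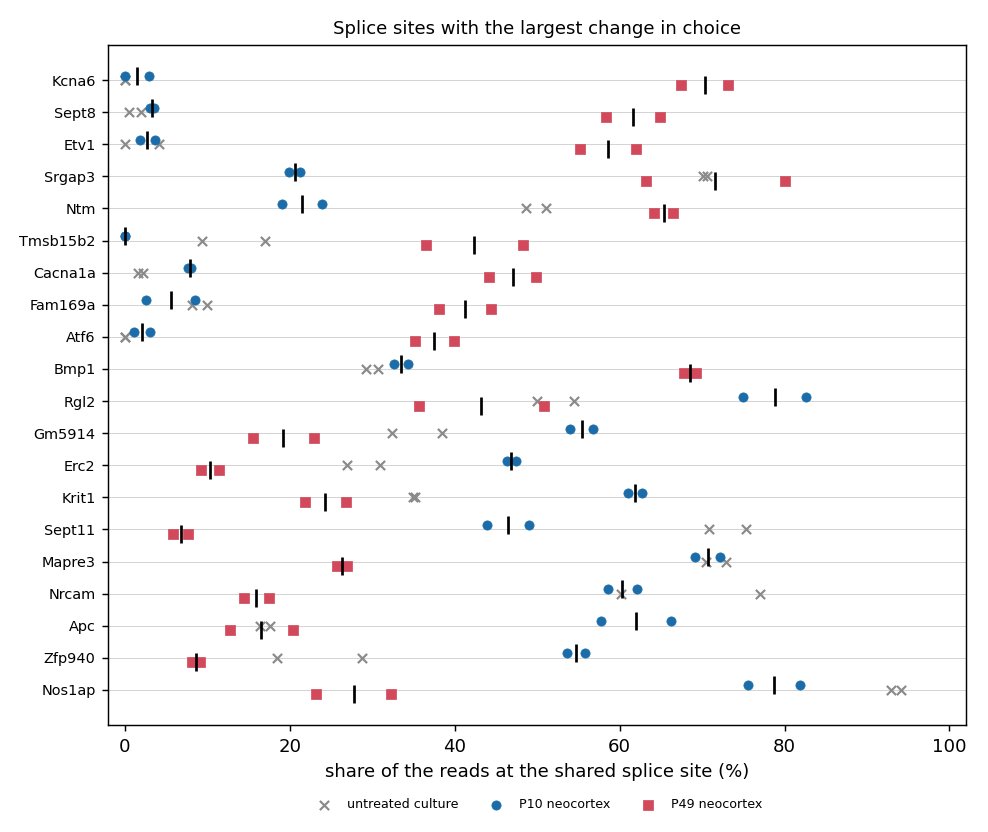
Share of reads at the shared splice site taken by 1 junction (horizontal axis, %) for the 10 largest rises and the 10 largest falls outside called cassette exons, 1 junction per gene. Blue circles are P10, red squares P49 and grey crosses untreated cultures, 1 symbol per library, with black bars at the means of 2. At all 20 sites the P10 and P49 libraries do not overlap, as at 50.2% of all tested sites.

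Outside called cassette exons, and at sites with at least 50 reads per library, the largest rise in share was in Kcna6, a voltage-gated potassium channel subunit. Its unannotated junction chr6:126708708-126712585 took 2.9% and 0.0% of the reads at its acceptor at P10 and 67.5% and 73.1% at P49 (edgeR, site adjusted p = 4e-07). The next was Sept8, a septin, one of a family of filament-forming GTPases. Its junction chr11:53537916-53541474 went from 3.0% and 3.5% to 58.4% and 64.9% of the reads at its donor, against an acceptor 265 bases away. In the annotation both of these Sept8 junctions end in exons that hold coding and untranslated sequence. Etv1, a transcription factor of the ETS family, went from 3.6% and 1.8% to 62.0% and 55.2% at an acceptor, while its gene sum did not pass (log2 change 0.19, adjusted p = 0.09). In all 3 the P10 libraries were near 0 and the cultures at most 4.2%.

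At 4 of the 20 sites an annotated junction gained share from an unannotated one, and at Apc and Nrcam, described below, it is the unannotated junction that was ranked. In Srgap3, a GTPase-activating protein of the Slit-Robo pathway, the annotated junction went from 19.9% and 21.3% to 80.0% and 63.2%. In Ntm, which encodes the adhesion protein neurotrimin, it went from 23.9% and 19.1% to 64.2% and 66.5%. In both genes the gene sum fell, by 0.48 on the log2 scale. The cultures did not resemble P10 at these sites, with 70.6% and 70.1% for Srgap3 and 51.1% and 48.6% for Ntm. Atf6, a sensor of unfolded proteins in the endoplasmic reticulum, rose from 3.0% and 1.1% to 35.2% and 39.9%, and Bmp1, a secreted metalloprotease, from 34.3% and 32.7% to 67.8% and 69.3%. The remaining rises were Tmsb15b2, from 0.0% in both P10 libraries to 48.3% and 36.5%, and Fam169a, from 2.6% and 8.5% to 38.1% and 44.4%, which missed the threshold without the first P10 library (adjusted p = 0.068).

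The falls included scaffolds and proteins of the cytoskeleton. Nos1ap, an adaptor of neuronal nitric oxide synthase, went from 75.6% and 81.9% to 23.2% and 32.3% for a junction that joins a coding exon (chr1:170320588-170327517). Mapre3 encodes EB3, which binds growing microtubule ends, and its site was the deepest of the 20, with at least 2103 reads in each library. Its shorter donor fell from 69.2% and 72.2% to 27% and 25.7%, so the 45-base extension printed above was kept in most reads at P49 and in a minority at P10. The control cultures, at 70.5% and 72.9%, had the P10 pattern. Sept11, another septin, went from 43.9% and 49.0% to 7.7% and 5.9% at a donor with 3 tested junctions, and in the cultures this junction took 75.3% and 70.8%. Erc2, a protein of the presynaptic active zone, went from 46.3% and 47.4% to 9.2% and 11.4%, with the cultures in between at 27% and 31%. Nrcam is described with the adhesion proteins below. Apc, a microtubule-binding regulator of Wnt signalling, went from 57.8% and 66.2% to 20.4% and 12.7%. Here the cultures, at 17.6% and 16.4%, had the P49 pattern. Zfp940, a zinc finger gene whose sum did not pass (log2 change -0.01, adjusted p = 0.95), went from 55.8% and 53.6% to 8.1% and 9.1%. Krit1, Gm5914 and Rgl2 fell by 37.5, 36.2 and 35.5 points, with site adjusted p = 0.0084, 0.0041 and 0.00015. The Krit1 call was lost without the second P10 (0.081) or the first P49 library (0.14), the Gm5914 call without the first P49 library (0.12), and the Rgl2 call without either P10 library (0.16 and 0.064) or the first P49 library (0.47). With no filter on low counts Krit1 and Rgl2 also missed the threshold (0.11 and 0.19).

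A total of 8 lists of genes known for splice choice or for the cell types present were set beside all genes with a tested site. Of all these genes 4.28% had a called site of at least 10 points. The lists were written with earlier results of these data known, so the shares are a description and not a test. The shares were not adjusted for the number of tested sites per gene, which reached 17 in Ptprd and Tcf4. Ion channels and calcium pumps had such a site in 4 of 18 genes, synaptic receptors and adhesion proteins in 5 of 21, cytoskeleton and trafficking proteins in 4 of 21, postsynaptic scaffolds and kinases in 3 of 19, and splicing regulators in 6 of 44. Presynaptic and endocytic proteins (16 genes), myelin and glial proteins (11) and transcription and chromatin factors (10) had none by edgeR after adjustment. At an unadjusted p under 0.05 these 3 lists had 2, 0 and 2 such genes, and by limma voom after adjustment 2, 0 and 2. The median of the largest share change per site was 3.65 points for channels, 2.32 for receptors and adhesion, 1.45 for the cytoskeleton, 1.64 for postsynaptic proteins and 1.67 for splicing regulators, beside 1.83 over all genes.

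**Figure D3:**
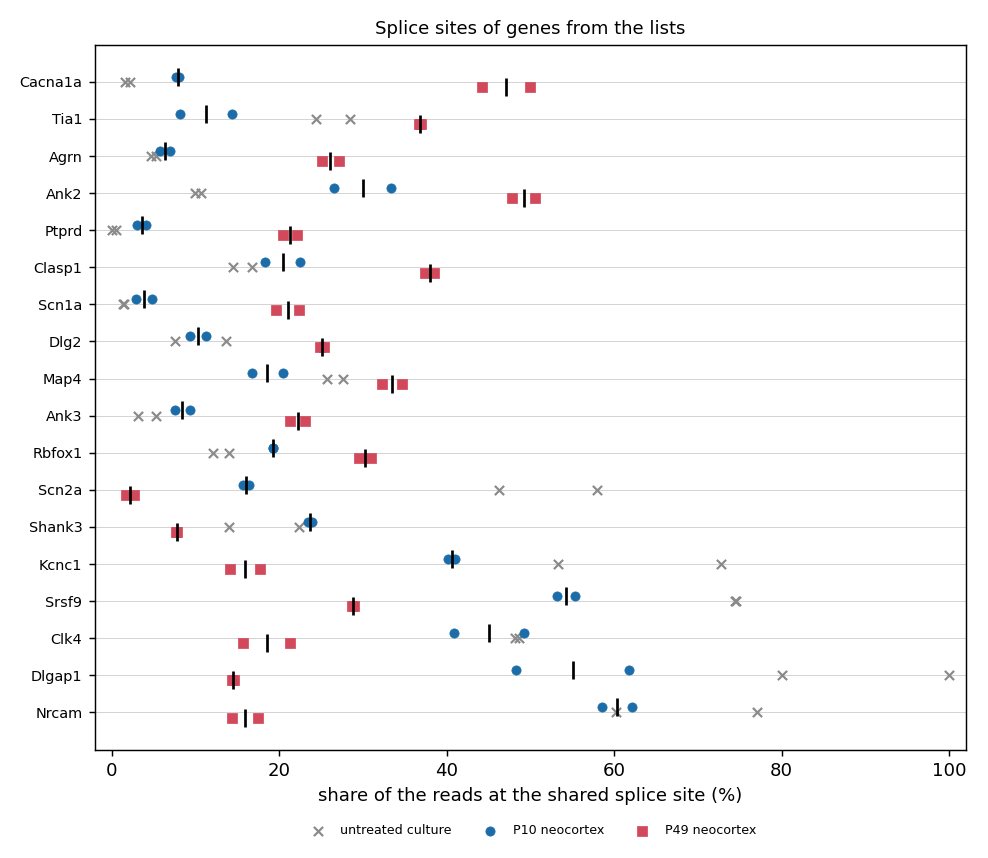
Share of reads at the shared splice site taken by 1 junction (horizontal axis, %) for called genes of the lists, up to 4 per list by p. Blue circles are P10, red squares P49 and grey crosses untreated cultures, 1 symbol per library, with black bars at the means of 2. The P10 and P49 libraries do not overlap at any of the 18 sites (50.2% of all tested sites), and the cultures lie on the P10 side of most of them. The place of the cultures at all tested sites is not given.

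Among the channels, Cacna1a switched between the exons printed above. The first exon of the pair took 7.7% and 8.0% of the reads at the shared acceptor at P10 and 49.9% and 44.2% at P49 (edgeR, site adjusted p = 2.3e-12), and only 1.6% and 2.2% in the cultures. The gene sum moved little, by -0.13 on the log2 scale. Scn2a encodes the sodium channel Nav1.2, which is known to have a neonatal and an adult form of an exon in its first domain. The first of its alternative exons fell from 16.4% and 15.7% to 2.7% and 1.7% (site adjusted p = 1.6e-08), from a level of 57.9% and 46.3% in the cultures, and the gene sum did not pass (log2 change -0.03, adjusted p = 0.57). Scn1a encodes Nav1.1, the sodium channel most used by inhibitory neurons. A 33-base exon extension of it rose from 4.8% and 2.9% to 19.6% and 22.4% (site adjusted p = 0.00013), while the gene sum rose by 1.28. Kcnc1, the potassium channel Kv3.1 of fast-spiking neurons, moved from 41.0% and 40.2% to 14.1% and 17.7% for an unannotated junction whose alternative is annotated, and its gene sum rose by 2.22. The Kcnc1 call was lost without the first P49 library (adjusted p = 0.056). Scn8a was called with a smaller change, from 94.8% and 92.9% to 99.0% and 98.4%. Atp2b1 moved by -12.7 points and Kcnma1 by -14.7, and neither passed (adjusted p = 0.086 and 0.26).

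Of the receptors and adhesion proteins, Nrcam, an adhesion molecule of axons and nodes of Ranvier, fell from 58.6% and 62.1% to 14.4% and 17.5% for an unannotated junction, against cultures at 77.0% and 60.2%. Agrn encodes agrin, an organiser of synapses, and an unannotated junction of it rose from 7.0% and 5.7% to 27.1% and 25.1%. Ptprd and Ptprf, receptor phosphatases that bind synaptic partners, were both called, with Ptprd going from 4.1% and 3.0% to 20.5% and 22.1% and Ptprf from 27.3% and 27.2% to 42.9% and 39.5%. Gria4 and Nlgn1 moved by 13.5 and 17.0 points without passing (adjusted p = 0.26 and 0.55), and Grin1, read at least 4631 times per library at its site, by 0.2 points.

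The postsynaptic members were Shank3, Dlg2 and Dlgap1, which build the postsynaptic density. Shank3 fell from 23.4% and 23.9% to 7.8% and 7.7% for the junction into an unannotated 28-base exon. Dlg2 rose from 9.3% and 11.2% to 25.4% and 24.9%, and Dlgap1 fell from 61.8% and 48.3% to 14.6% and 14.4% at a site with as few as 29 reads per library. The Dlgap1 call was lost without the first P10 library (adjusted p = 0.2), without the first P49 library (0.091) and without the second (0.068). Of the cytoskeletal genes, Ank2 and Ank3, ankyrins that anchor channels to the spectrin skeleton, took up exons of 36 and 24 bases more often. The Ank2 junction went from 33.4% and 26.5% to 50.6% and 47.8%, with the cultures at 9.9% and 10.7% (adjusted p = 0.051 without the second P10 library). The Ank3 junction went from 9.3% and 7.5% to 21.3% and 23.1%, and missed the threshold without the second P10 library (adjusted p = 0.11), the first P49 library (0.053) or the second (0.093). Map4, a microtubule-associated protein, rose from 16.7% and 20.4% to 34.6% and 32.3% (adjusted p = 0.072 without the first P10 library). Clasp1, which tracks microtubule ends, rose from 22.5% and 18.3% to 37.4% and 38.5%, and was not called when any 1 of the 4 libraries was left out (adjusted p from 0.067 to 0.35). With no filter on low counts Dlgap1, Ank3 and Clasp1 missed the threshold (0.11, 0.088 and 0.43).

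Most splicing regulators had no called site, and the 6 of 44 with one of at least 10 points were Srsf9, Tia1, Clk4, Rbfox1, Mbnl1 and Ptbp1. Srsf9 and Tia1 bind RNA and steer exon choice, and Clk4 is a kinase that acts on SR proteins. The Srsf9 junction that skips a 358-base exon fell from 55.3% and 53.2% to 28.9% and 28.7%, while Tia1 rose from 14.4% and 8.2% to 36.9% and 36.7%. In Clk4, the unannotated junction that skips an exon fell from 49.2% and 40.9% to 21.3% and 15.7%. Rbfox1, a regulator of neuronal exons, rose from 19.3% and 19.2% to 29.5% and 31.0% at an acceptor with 4 tested junctions. Among presynaptic and endocytic genes Rims1, Dnm1 and Picalm were called below 10 points, beside 8.47% of all genes with any called site. Snap25, a protein of vesicle fusion whose gene sum rose by 1.57, changed by at most 0.1 points at its 2 tested sites.

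Cassette exons joined both ends of such choices. Percent spliced in was the mean of the 2 inclusion junctions over that mean plus the skipping junction, and an exon was called when both inclusion junctions passed in 1 direction and inclusion changed by at least 10 points. Of 2032 exons of up to 500 bases with at least 20 reads per library, 69 in 67 genes were called (3.4%), with inclusion higher at P49 in 55 (2.71%) and lower in 14 (0.689%). Over all 2032 exons the median change was 0.49 points. Without the second P10 library 40 exons were called, without the first P49 library 42 and without the second 40. The sum of the gene was higher in 31 of the 67 genes, lower in 24 and not called in 12. Just inside the limit of 10 points stood Cnih1 (14.9% to 24.9%), Ints10 (2.66% to 12.8%) and Rbm25 (9.16% to 19.3%), and just outside it Sorbs2 (7.03% to 17.0%) and Ptprd (2.08% to 11.6%).

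The called exons were short, and their length was more often a multiple of 3 than that of all tested exons. Whether they keep a reading frame was not tested. Their median length was 51 bases, beside 93 for all tested, and 44 of 69 (63.8%) had a length that is a multiple of 3, beside 45.7% of all tested. Of 139 microexons of 3 to 27 bases 12 were called (8.6%), 9 upward and 3 downward, and of 1893 exons of 28 to 500 bases 57 (3%), 46 upward and 11 downward. By the annotation 31 of the 69 lay wholly in coding sequence of a transcript, 10 partly, 4 only in untranslated or noncoding parts, and 24 (34.8%) are not annotated exons, beside 55.1% of all tested exons. Of 11 called exons with inclusion below 5% at P10, 7 (63.6%) were unannotated, beside 72.6% of the 797 tested exons below that level. An exon of at least 1 transcript annotated as a target of decay made up 10 of the 69 (14.5%), 7 upward and 3 downward, beside 12.2% of all tested.

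**Figure D4:**
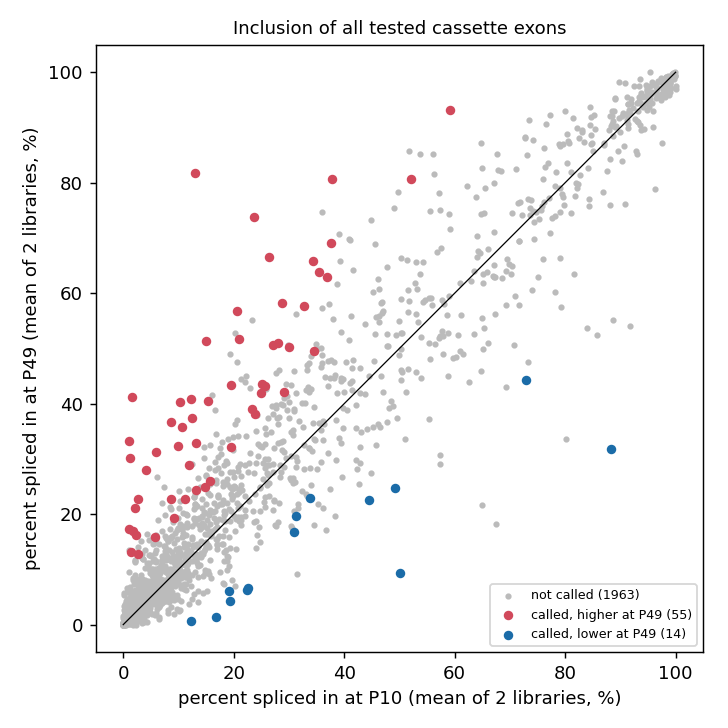
Percent spliced in at P49 (vertical axis) against P10 (horizontal axis) for all 2032 tested cassette exons, each a mean of 2 libraries, with the line of equal inclusion. The 55 exons called with higher inclusion at P49 (red) lie above the line and the 14 with lower inclusion (blue) below it, and 1963 were not called (grey).

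The largest rise was the 33-base exon of C2cd5, a C2-domain protein that takes part in vesicle trafficking. It was included in 17.3% and 8.6% of transcripts at P10 and in 83.5% and 80.1% at P49 (edgeR, larger adjusted p of its junctions = 1.7e-08), and a second exon of 66 bases in the same gene rose from 27.7% and 29.7% to 59.3% and 57.0%. Ptprk, a receptor phosphatase, kept an unannotated 42-base exon at 27.4% and 20.1% and then at 73.7% and 73.8%. Prpf18 is a splicing factor of the second catalytic step. Its 27-base exon, annotated only in a noncoding transcript, went from 38.3% and 37.4% to 81.8% and 79.6%. Ttc7b, a subunit of a lipid kinase complex at the plasma membrane, kept its 51-base exon at 16.3% and 13.9% and then at 53.5% and 49.0%.

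Cxadr and Dop1b started near 0, and the other rises from intermediate levels. Cxadr, a cell adhesion protein first known as a virus receptor, kept an unannotated 168-base exon at 2.1% and 1.0% at P10 and at 38.6% and 43.8% at P49, while its gene sum fell by 2.93. Dop1b kept an unannotated 36-base exon at 0.7% and 1.3% and then at 33.5% and 33%, with 0.0% in both control cultures. Celsr3, an atypical cadherin that guides axon tracts, went from 29.4% and 23.2% to 66.6% in both libraries for an unannotated 38-base exon. Ash2l, a subunit of histone methyltransferase complexes, went from 22.3% and 19% to 55.6% and 58.1% for an unannotated 18-base exon. Cdc42bpa, a kinase that acts downstream of Cdc42, went from 34.7% and 34.1% to 65.0% and 66.6% for a coding 48-base exon, while a further exon of 158 bases fell from 28.6% and 33.1% to 14.8% and 18.8%. Myo5b, a vesicle motor, reached 92.9% and 93.4% from 62.2% and 56.0%. This last call was lost without the second P10 library (adjusted p = 0.11), the first P49 library (0.058) or the second (0.069).

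**Figure D5:**
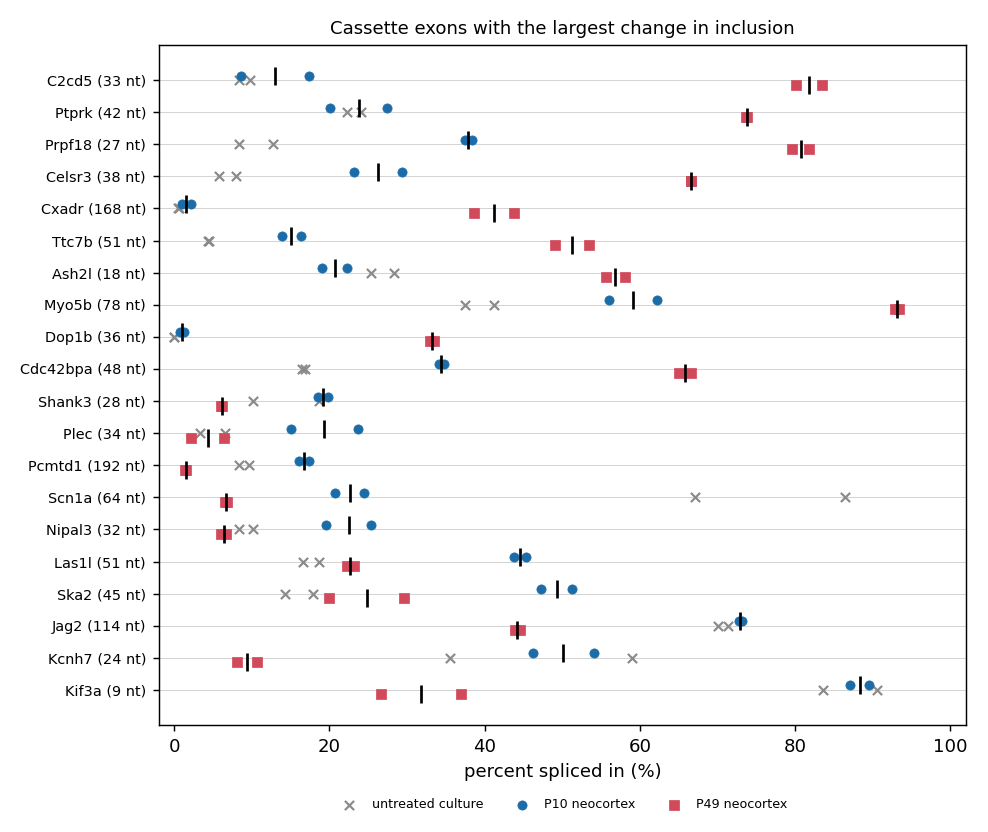
Percent spliced in (horizontal axis, %) of the 10 exons with the largest rise and the 10 with the largest fall, 1 per gene, with exon length in bases after the gene. Blue circles are P10, red squares P49 and grey crosses untreated cultures, 1 symbol per library, with black bars at the means of 2. The P10 and P49 libraries do not overlap for any of the 20 exons, nor for 60.8% of all tested exons.

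The largest fall was the 9-base exon of Kif3a, a kinesin motor subunit that carries cargo to cilia and axons. It was included in 89.5% and 87.1% at P10, in 26.7% and 36.9% at P49 and in 90.5% and 83.6% in the cultures. With as few as 57 reads per library its larger adjusted p was 0.022, and no call was left when any 1 of the 4 libraries was left out (adjusted p from 0.15 to 0.21). Kcnh7, a potassium channel of the ERG family, kept an unannotated 24-base exon at 46.2% and 54.1% and then at 10.6% and 8.1% (larger adjusted p = 0.0033, 0.096 without the second P49 library, and 0.065 when only the 4 tissue libraries were fitted). The 114-base coding exon of Jag2, a Notch ligand, went from 73.1% and 72.8% to 43.9% and 44.5%, in replicates that lie within 1 point of each other. Its larger adjusted p was 0.038, and 0.18 to 0.29 without any 1 library.

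The 64-base exon of Scn1a printed above is known as a poison exon that limits the channel in the young brain. Its inclusion went from 20.7% and 24.5% at P10 to 6.8% and 6.6% at P49, and stood at 86.4% and 67.1% in the cultures, while the gene sum rose by 1.28. The larger adjusted p was 0.01, and the call was lost without the second P10 library (0.11), the first P49 library (0.1) or the second (0.086). Pcmtd1 lost a 192-base exon, also part of a decay-annotated transcript, from 16.1% and 17.4% to 1.4% and 1.5%, and Nipal3 a 32-base exon from 19.6% and 25.4% to 6.7% and 6.0%. Las1l, Ska2, Plec and Shank3 fell by 21.9, 24.4, 15 and 13 points. Las1l, Ska2 and Plec were each no longer called when any 1 of the 4 libraries was left out, and Shank3 was called only without the second P10 library among these 4 settings. With no filter on low counts, Kif3a, Jag2, Ska2, Las1l, Plec and Myo5b also missed the threshold (adjusted p = 0.3, 1, 0.91, 0.37, 0.79 and 0.053), as did Ska2 when only the 4 tissue libraries were fitted (0.053).

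Single exons among the other called ones, chosen after their values were seen, are given as examples. One was the 63-base exon of Myh10, a nonmuscle myosin heavy chain, which went from 0.980% and 0.974% to 18.7% and 16%. The 348-base exon of Nptn, which carries an extra immunoglobulin domain of the adhesion protein neuroplastin, went from 35.7% and 35.3% to 64.8% and 63.1%. The 18-base exon of Arhgap44, a GTPase-activating protein of dendritic spines, went from 14.9% and 9.80% to 41.6% and 40.2%. The 92-base exon of Grm7, which switches the tail of the glutamate receptor mGluR7, went from 10.1% and 10.5% to 38.2% and 42.3%. In the other direction, the 39-base exon of the kinase Gsk3b went from 32.0% and 30.5% to 18.7% and 20.6%.

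Of the 10 exons found in decay-annotated transcripts, those that rose included, again as examples chosen after their values were seen, the 358-base exon of Srsf9 (37% and 36.7% to 63.0% and 62.9%), the 66-base exon of Tia1 (23.1% and 15.8% to 42.6% and 44.3%) and the 82-base exon of Ezh2, the histone methyltransferase of Polycomb complex (9.90% and 11.5% to 33.3% and 38.3%). An unannotated 56-base exon of Ptbp1, a repressor of neuronal exons, went from 17.0% and 7.74% to 34.8% and 40%.

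The untreated cultures, which had reads for 68 of the 69 called exons, were described beside the tissue. Their mean inclusion was nearer to P10 in 56 exons and nearer to P49 in 12. It lay between the ages in 23, beyond the P10 value in 41 and beyond the P49 value in 4. The same counts over all tested exons are not given, so these describe the called exons only. Whether called exons differ from the rest in this was not tested. Scn1a was an example beyond P10, and for Prpf18, Celsr3 and Agfg1 the cultures, at 8.3% and 12.7%, 7.9% and 5.8%, and 28.1% and 32.0%, were below P10 in the same way. For Msi2, an RNA-binding protein of progenitors, a 24-base exon went from 1.70% and 2.68% to 16% and 26.3%, while the cultures stood at 24.7% and 27.6%.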

How the data were processed

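Stranded poly-A libraries were made, per the labels' protocols, and the submitters' processing notes name STAR 2.4.0f1 and mm10 (GRCm38). The sources used here give no counting or filtering settings. The values used are counts of reads across each junction, as deposited and per the file headers, with no normalisation. The header has 67 names and rows have 64 cells, so columns were read by number after that shift. The P10 columns are named, the P49 and control columns were assigned by elimination, and library numbers follow column order only. A further 76 columns of per-library values were not used. Where a coordinate is listed on both strands (4523), the row with more reads was kept. Junctions took their gene from the introns of GENCODE mouse release 21, or from a shared splice site.

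Counts were filtered (filterByExpr, 163813 junctions with 99.6% of reads kept), scaled by TMM and fitted with edgeR 4.0.16 (quasi-likelihood, two-sided) over 8 libraries in 4 groups. Usage within genes and choice at shared sites were tested with diffSpliceDGE, Simes per unit and Benjamini-Hochberg adjustment at 0.05. An SE is the log2 change over the square root of F. Intervals and floors (3 counts) cover counting error only, since reads carry no molecular identifiers. Libraries of an age differed beyond sampling noise (mean chi-square per junction of 4.38 at P10 and 3.23 at P49, where noise alone gives 1). The value was lower in the cultures, 2.67 for control and 2.2 for DRB, and the estimate of the spread draws on these libraries too. The fits were tested on simulated counts with known changes and a set dispersion of 0.02. There 62% of 2-fold and 6% of 1.5-fold junction changes were called, and 32% of site changes of 20 points. False calls were 5 sites and 6 junctions. A site or junction without a call can thus still have changed. Apart from the set changes, all simulated libraries shared 1 mean per junction, scaled to library size, and the same dispersion. The simulation held no larger scatter in tissue and no all-or-none differences between libraries. Its false calls thus cannot be carried over to the real data. The rule named the 10 largest changes per direction for sites and for exons (at least 50 reads at a site), the 5 largest for single junctions, usage and junctions against their gene, and up to 4 genes per list by p. Members, lists and rules were chosen with earlier results of these data known. Alternatives were DESeq2 1.42.0, limma 3.58.1 (voom and diffSplice), other filters and thresholds, annotated introns only, the 4 tissue libraries alone and each tissue library left out. R was 4.3.3. Some items that the rules name, and some sequences, are not reported here.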

Additional observations from a re-analysis of the deposited data

How the results depend on the processing

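No paired analysis was possible because the columns carry no replicate letter of the labels. The main counts were 2638 junctions with changed usage, 806 sites called, 383 of them by 10 points, and 69 exons (55 up, 14 down). With no filter on low counts these became 1738, 394, 225 and 41 (34 up, 7 down). With annotated introns only, 456 sites were called, 243 by 10 points, and 8 exons fell. With limma voom 598 sites by 10 points and 111 exons were called, 30 of the exons down, and all 69 main exons were among them. With a minimum of 20 points, 179 sites and 36 exons remained past it (31 up, 5 down). Leaving out each library in turn gave 47066 to 54406 changed junctions (23436 to 27273 higher, 23630 to 27133 lower), 1745 to 2273 junctions and 823 to 954 genes with changed usage, 407 to 543 sites, 240 to 282 by 10 points, and 40 to 47 exons (32 to 40 up, 4 to 8 down). Of the main 69 exons 35 to 41 were among these. Without a library the lone sample of its age is assumed to vary like the other groups. DESeq2 called 44127 junctions, against 61078. Other count alternatives stayed within 1.5 times. For single named values, 628 of 718 alternative values kept their direction and side of the threshold, 87 kept no call and 3 changed sign: the relative usage of the Gpd1l junction was 0.31 without the first P10 library, and that of 4833439L19Rik 0.41 and of Noc2l 0.44 without the second, where each junction has no tissue read left. Leaving out the other P10 library gave -11.40, -11.99 and -10.19 for these junctions. Gene sums were fitted once, without alternatives. Depth limits sites with few reads: 1540 sites with a mean change of 10 points were not called.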
